A study of Mus musculus with 36 samples.

Results

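The genes described here serve the choice of a single olfactory receptor gene and the transport of the receptor protein to the surface of the olfactory sensory neuron. They are a given list of 10 symbols, found among the 57010 gene rows of each of 3 count tables. The 4 trafficking genes are Rtp1 (ENSMUSG00000033383), Rtp2 (ENSMUSG00000047531), Reep1 (ENSMUSG00000052852) and Ric8b (ENSMUSG00000035620). The 6 choice genes are Lhx2 (ENSMUSG00000000247), Ldb1 (ENSMUSG00000025223), Emx2 (ENSMUSG00000043969), Ebf1 (ENSMUSG00000057098), Atf5 (ENSMUSG00000038539) and Kdm1a (ENSMUSG00000036940). All 10 passed the filter on low counts in every table. Their lowest count in any library was 437, for Reep1.

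RNA was recovered from the olfactory epithelium of wild-type C57BL/6J male mice aged 8 weeks by immunoprecipitation of ribosomes that carry phosphorylated ribosomal protein S6 (pS6), a mark of recently active neurons. Mice spent 4 h without odor and then 90 min with 10 µL of an odorant on filter paper, or with empty paper (no odor). The AD set held no odor, acetophenone, decanal and their 1:1 mixture. The OC set held no odor, octanal, cis-3-hexenol and their 1:1 mixture, and the FM set held no odor, a floral fragrance, a mint fragrance and a floral-mint blend. Each of the 12 groups had 3 libraries, called biological replicates in the labels, and no library of RNA without immunoprecipitation was analysed here. The set is the batch in the labels, so every odor group was set against the no-odor libraries of its set. The tissue is bulk, and fewer cells of a type, less RNA per cell and less of that RNA captured by the immunoprecipitation cannot be told apart.

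An olfactory sensory neuron expresses 1 receptor gene from a very large family. Heterochromatin silences the family, and the histone demethylase Kdm1a (LSD1) is needed for the first allele to be opened. Lhx2 and its cofactor Ldb1 bind receptor enhancers, Ebf1 binds receptor enhancers and promoters, and Emx2 is a homeodomain factor needed for normal expression of many receptor genes. Receptor protein in the endoplasmic reticulum triggers translation of Atf5, which feeds back to end Kdm1a expression and to let the neuron mature. The membrane proteins Rtp1, Rtp2 and Reep1 help receptors reach the cell surface, and Ric8b helps the olfactory G protein Gαolf to fold and to signal.

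The trafficking genes moved most alike in these libraries, so the 250 bases upstream of their start sites are shown (RefSeq, GRCm38.p6, 5′ to 3′ on the gene's strand). Windows were found for 9 of the 10 genes, and Rtp1 had none. Capitals mark TGACGT, the core of the cyclic AMP response element, on either strand.
Rtp2, chr16:23930795-23931044, minus strand: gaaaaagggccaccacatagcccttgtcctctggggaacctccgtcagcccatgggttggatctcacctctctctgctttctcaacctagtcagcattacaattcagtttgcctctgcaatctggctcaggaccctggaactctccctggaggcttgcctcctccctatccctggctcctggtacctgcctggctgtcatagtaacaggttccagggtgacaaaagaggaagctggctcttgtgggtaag
Reep1, chr6:71707431-71707680, plus strand: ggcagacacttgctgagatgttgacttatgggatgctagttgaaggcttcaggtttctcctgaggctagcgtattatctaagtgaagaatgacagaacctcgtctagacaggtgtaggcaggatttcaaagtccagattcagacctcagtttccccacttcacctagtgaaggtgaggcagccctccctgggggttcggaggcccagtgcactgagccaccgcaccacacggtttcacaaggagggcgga
Ric8b, chr10:84917363-84917612, plus strand: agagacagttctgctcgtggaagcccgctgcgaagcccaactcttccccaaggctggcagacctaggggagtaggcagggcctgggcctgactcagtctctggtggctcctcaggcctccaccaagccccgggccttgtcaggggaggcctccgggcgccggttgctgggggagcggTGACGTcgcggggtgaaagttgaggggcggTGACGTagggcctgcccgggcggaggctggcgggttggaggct

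The Ric8b window held TGACGT at 2 places, starting 73 and 43 bases before the start site, and was the 1 window of the 14 with this motif. The motif was chosen after the windows had been read, and 6.47% of 32851 RefSeq windows of this length held it on either strand. The homeodomain core TAATTA, searched likewise, was in 0 of the 14 windows of the 9 genes and in 4.84% of all windows. The motifs did not overlap in the windows shown, and a match is a description of letters only.

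Library totals ran from 16.04 to 26.39 M counts (M, mega). No libraries of a group held identical values. Omp, Cnga2 and the other mature olfactory sensory neuron markers (9 genes) summed to 7352 to 26640 CPM (counts scaled to a common library size) in every library. Markers of other cells were present too: the summed red blood cell markers were 78040 to 92620 CPM in the no-odor libraries of the OC set, against 15520 to 20990 CPM without odor in the AD set and 30310 to 32930 CPM in the FM set. No marker on any list was at 0 in all libraries.

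Over the 9 comparisons of an odor with no odor, the 4 trafficking genes were called higher in 28 of 36 gene-by-comparison tests and lower in 0, and their fitted change was positive in all 36. The 6 choice genes were called higher in 10 and lower in 4 of 54 tests. Of all genes tested, 2.58% to 17.9% were called higher and 1.27% to 14.8% lower per comparison. Called means an adjusted p below 0.05 in edgeR's quasi-likelihood test, with the Benjamini-Hochberg adjustment made across every tested gene of the set. These directions are relative to library size: with libraries scaled to the 9 mature neuron markers, 0 trafficking genes were called higher in any comparison, as given with the markers. Controls are shared by the 3 comparisons of a set, so these tests are not independent of each other.

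Acetophenone gave 4 higher and 0 lower among the 10 genes, where 4.22% of the 19514 genes tested were higher and 1.27% lower, and 7 of the 10 did not overlap the controls (25.8% of genes). Decanal gave 3 higher and 1 lower (10.8% and 11.5% of genes), with 9 not overlapping (41.8%). The acetophenone-decanal mixture gave 3 higher and 2 lower (10.9% and 10.4%), with 9 not overlapping (38.8%). The acetophenone calls were thus all trafficking genes, while decanal and the mixture also moved Atf5 and Kdm1a.

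Octanal gave 7 higher and 0 lower (17.9% and 14.4% of 19568 genes), with 6 not overlapping (42.1%). Cis-3-hexenol gave 3 higher and 0 lower (2.58% and 3.16%), with 6 not overlapping (30.8%), and the octanal-hexenol mixture gave 6 higher and 0 lower (17.7% and 14.8%), with 8 not overlapping (48.7%). In the FM set floral gave 3 higher and 1 lower (8.70% and 5.35% of 19204 genes), with 6 not overlapping (36.4%). Mint gave 4 higher and 0 lower (7.10% and 4.07%), with 5 not overlapping (27.3%), and floral-mint 5 higher and 0 lower (6.42% and 3.22%), with 7 not overlapping (32.0%). The median log2 change of the 10 genes was lowest with decanal (0.167, beside -0.0023 over all genes) and highest with octanal (0.57, beside -0.043).

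**Figure D1:**
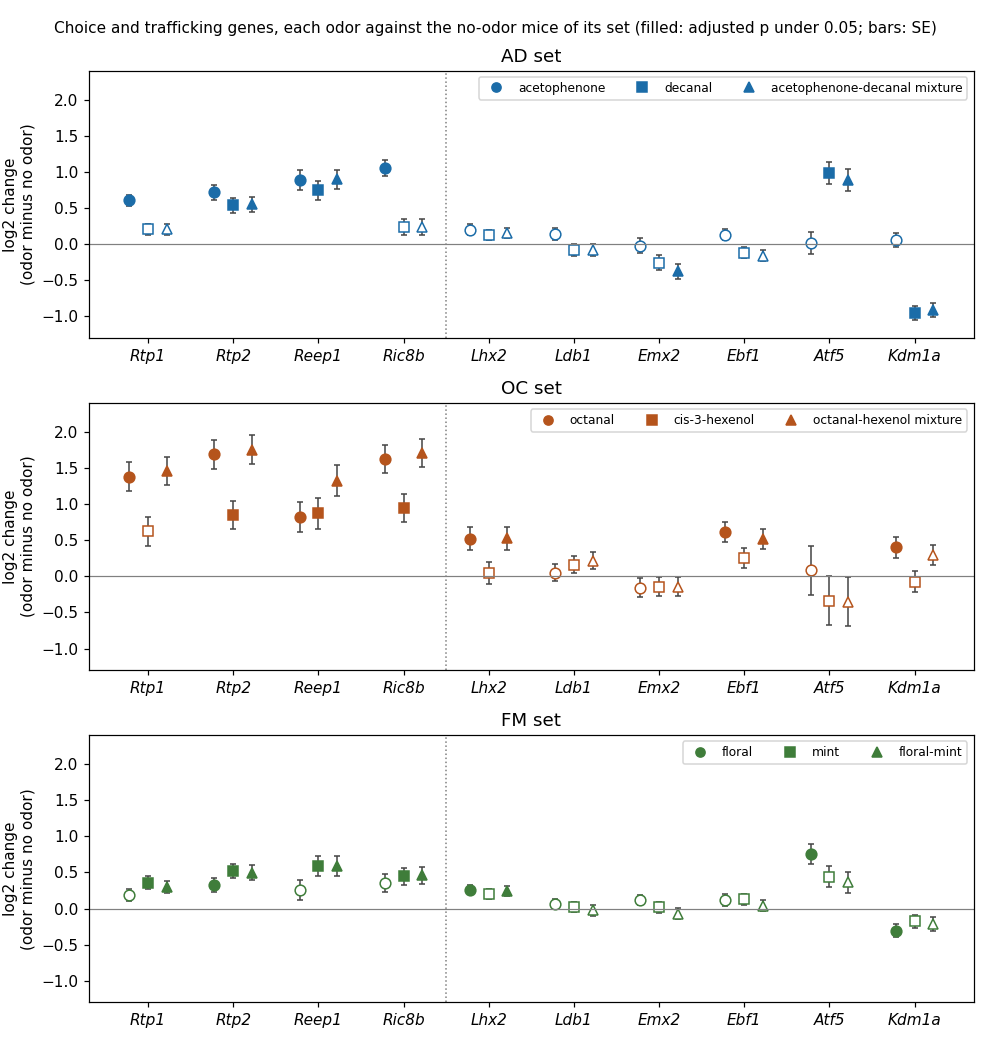
Log2 change of each gene in the 9 comparisons of an odor with the no-odor libraries of its set, with trafficking genes left of the dotted line. Symbols are odors, bars are standard errors and filled symbols passed an adjusted p under 0.05. All points of the 4 trafficking genes lie above 0 with libraries scaled by TMM (with neuron marker scaling many fall below it), and Kdm1a lies near -0.96 with decanal and -0.92 with the acetophenone-decanal mixture.

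Rtp2, a chaperone that carries receptors to the membrane, was higher with all 9 odors by 0.33 to 1.75 on the log2 scale. Its level in the OC set was 147, 194 and 166 CPM in the 3 no-odor libraries and 689, 405 and 538 CPM with octanal. The lowest octanal library was above the highest control by more than the whole range of the controls. The change was 1.69 ± 0.20 (SE), or 3.22-fold (adjusted p = 2.39e-05). With cis-3-hexenol Rtp2 was at 367, 296 and 248 CPM, again above every control (0.85 ± 0.20, adjusted p = 0.0218), but that call ended without OC control library 1 or 3 or cis-3-hexenol library 1 or 2 (adjusted p 0.0679 to 0.0904). The mixture libraries held 565, 547 and 590 CPM and gave the largest change of Rtp2, 1.75 ± 0.20 (adjusted p = 1.77e-05).

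In the AD set Rtp2 was very even without odor, at 312, 308 and 310 CPM. Acetophenone libraries held 468, 614 and 446 CPM (log2 change 0.72 ± 0.10, adjusted p = 0.00151). Decanal libraries held 439, 449 and 463 CPM (0.54 ± 0.10, adjusted p = 0.00249), and mixture libraries 477, 436 and 454 CPM (0.56 ± 0.10, adjusted p = 0.0023). No Rtp2 value of the 9 odor libraries overlapped the controls of that set. In the FM set the controls held 378, 359 and 333 CPM, and the odor libraries ranged from 411 CPM (floral) to 582 CPM (mint). Floral changed it by 0.33 (adjusted p = 0.0388), mint by 0.52 (adjusted p = 0.00381) and the floral-mint blend by 0.50 (adjusted p = 0.00523). The floral call ended whichever of the 6 libraries was left out (adjusted p 0.0541 to 0.138).

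Rtp1, the close relative of Rtp2, was called higher with 5 odors. No-odor libraries of the OC set held 218, 282 and 286 CPM, octanal libraries 833, 498 and 715 CPM and mixture libraries 706, 673 and 781 CPM. Its log2 changes there were 1.38 ± 0.20 (adjusted p = 0.000108) and 1.46 ± 0.20 (adjusted p = 7.35e-05), with no overlap. Cis-3-hexenol libraries, at 479, 391 and 338 CPM, were above the controls, but the change of 0.62 was not called (adjusted p = 0.0716); DESeq2 called it (adjusted p = 0.0172). In the AD set Rtp1 rose with acetophenone, from 557, 509 and 543 CPM to 802, 896 and 751 CPM (0.60 ± 0.08, adjusted p = 0.000591). Decanal (0.21) and the mixture (0.20) were above the controls and not called (adjusted p = 0.0722 and 0.0786), though DESeq2 called decanal (adjusted p = 0.047). Mint (0.36, adjusted p = 0.0147) and floral-mint (0.30, adjusted p = 0.0414) were called in the FM set, and floral was not (0.18, adjusted p = 0.167). The mint call ended without FM control library 1 or 3 or mint library 2 (adjusted p 0.0616 to 0.0713), and the floral-mint call held in 1 of 6 left-out fits, that without FM control library 2 (adjusted p 0.0913 to 0.15 in the others).

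Because both genes come from 1 library, their ratio does not depend on library size. The number of Rtp1 counts per Rtp2 count was 1.73 ± 0.07 (SD, n = 3) in AD controls, 1.62 ± 0.14 in acetophenone libraries and 1.37 ± 0.02 in decanal libraries. It was 1.55 ± 0.15 in OC controls, 1.26 ± 0.06 in octanal libraries, 1.33 ± 0.03 in cis-3-hexenol libraries and 1.27 ± 0.05 in those given both. In the FM set it was 1.81 ± 0.13 without odor and 1.58 to 1.64 with odors. The mean ratio was thus lower with each of the 9 odors. In 7 comparisons the 2-sided exact permutation test gave p = 0.1, the smallest that 3 libraries against 3 allow. For acetophenone and mint the exact permutation test gave p = 0.3 and p = 0.2, and after adjustment over the 9 exact tests p was 0.129 to 0.3. The ratio was looked at after values were seen. The transcripts of Rtp1 and Rtp2 align over 511 bases at 87.1% identity.

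Reep1, a protein that shapes endoplasmic reticulum membranes, had the lowest counts of the 10 genes and was called higher with 8 odors. In the AD set its level rose from 31.2, 26.7 and 28.1 CPM to 52.3, 62.1 and 44.9 CPM with acetophenone, 46.9, 44.6 and 52.6 CPM with decanal and 45.9, 53.7 and 60.5 CPM with the mixture. The log2 changes were 0.89, 0.74 and 0.90 (SE 0.13 each), with adjusted p of 0.00177, 0.00148 and 0.000487. The OC controls held 27.4, 25.8 and 30.9 CPM. Octanal libraries held 64.4, 29.5 and 54.5 CPM, and the second of them lay inside the control range (0.82 ± 0.21, adjusted p = 0.00838). Without octanal library 1 the call was lost (adjusted p = 0.0654). Cis-3-hexenol (0.87, adjusted p = 0.0273) and the mixture (1.32, adjusted p = 0.000297) were above the controls in all 3 libraries, but the cis-3-hexenol call ended whichever of the 6 libraries was left out (adjusted p 0.0594 to 0.106). Mint and floral-mint rose by 0.59 and 0.58 (adjusted p = 0.0141 and 0.0156), and floral, at 0.25, was not called (adjusted p = 0.238). Both FM calls ended without FM control library 1 or 3, and floral-mint's also without its library 1 (adjusted p 0.0605 to 0.0863).

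Ric8b, the chaperone and exchange factor of Gαolf, was called higher with 6 odors. In the AD set it was at 525, 481 and 511 CPM without odor and at 929, 1283 and 942 CPM with acetophenone (1.06 ± 0.12, adjusted p = 0.000158). Decanal (532, 592 and 659 CPM) and the mixture (590, 606 and 595 CPM) were above the controls but were not called, with changes of 0.23 and 0.24 (adjusted p = 0.163 and 0.159). OC controls held it at 266, 283 and 295 CPM. Octanal raised it to 1157, 637 and 808 CPM (1.62 ± 0.20, adjusted p = 2.91e-05), cis-3-hexenol to 630, 487 and 514 CPM (0.95 ± 0.19, adjusted p = 0.0124) and the mixture to 880, 865 and 1012 CPM (1.71 ± 0.20, adjusted p = 1.91e-05). Octanal library 2 was the lowest of its group for Rtp1, Rtp2, Reep1 and Ric8b alike. In the FM set mint (0.45) and floral-mint (0.46) were called (adjusted p = 0.0266 and 0.0249), and floral (0.35) was not (adjusted p = 0.0627), although DESeq2 (adjusted p = 0.0225), edgeR with no filter (adjusted p = 0.000306) and a fit of the 6 libraries alone (adjusted p = 0.0289) called it. The mint call ended without FM control library 1 or 3 or mint library 2 or 3 (adjusted p 0.0656 to 0.123), and the floral-mint call without FM control library 1 or 3 or floral-mint library 1 (adjusted p 0.0708 to 0.125). Without OC control library 1 the cis-3-hexenol call was at the threshold (adjusted p = 0.05).

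**Figure D2:**
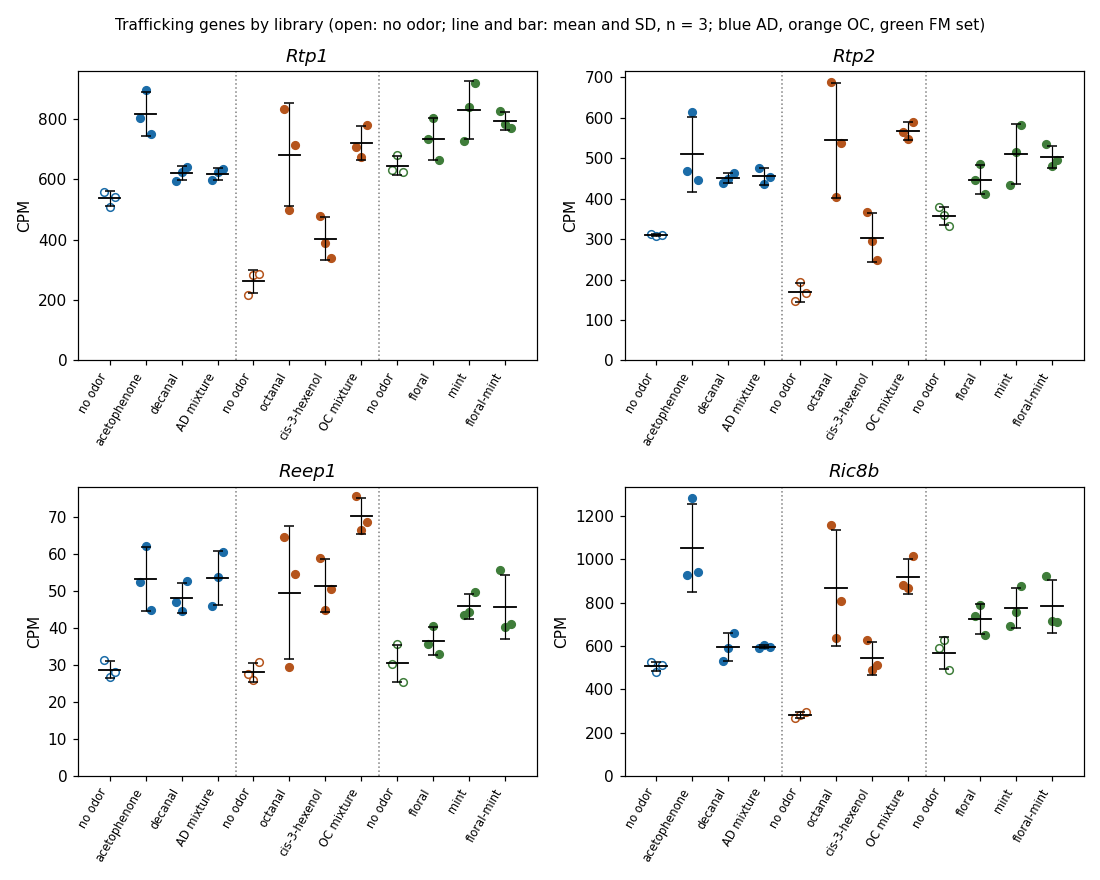
Level in CPM of Rtp1, Rtp2, Reep1 and Ric8b in each of the 36 libraries, by group, with the mean as a line and the SD as a bar (n = 3). The AD, OC and FM sets are split by dotted lines. In the OC set the controls of Rtp2 lie between 147 and 194 CPM and the octanal libraries between 405 and 689 CPM, with octanal library 2 lowest.

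Markers of mature olfactory sensory neurons moved with the trafficking genes. The median log2 change of the 9 markers was 0.88, 0.34 and 0.41 for acetophenone, decanal and the AD mixture, 1.44, 0.79 and 1.54 for octanal, cis-3-hexenol and the OC mixture, and 0.29, 0.53 and 0.45 for floral, mint and floral-mint. Their summed level was 8175 to 9617 CPM in AD controls against 13980 to 21550 CPM with acetophenone, and 7352 to 9726 CPM in OC controls against 18400 to 26640 CPM with octanal. In FM controls it was 11980 to 13810 CPM, against 19410 to 22920 CPM with the odors of that set. The summed red blood cell markers went the other way in the OC set, with 7450 to 28110 CPM in odor libraries, and so did bone markers, at 2723 to 4481 CPM without odor and 823 to 1981 CPM with odors. Neutrophil markers fell there as well, from 375 to 451 CPM down to 90.9 to 221 CPM, and floral raised 4 of 5 red blood cell markers (8.70% of all genes). Markers of immature neurons (5), horizontal basal cells (3), sustentacular cells (5), ensheathing glia (4) and respiratory ciliated cells (3) had 0 to 3 called lower and 0 to 2 called higher per comparison. Those of globose basal and precursor cells (5) had 0 to 4 called lower, with 4 in the acetophenone-decanal mixture, and 0 higher. Of all genes 1.27% to 14.8% were called lower and 2.58% to 17.9% higher per comparison. The part of these cells in the changes of the trafficking genes was not tested.

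When libraries were scaled by the summed counts of the 9 markers, the median of all genes shifted by -0.47 (cis-3-hexenol) to -1.44 (octanal-hexenol mixture) on the log2 scale. Omp was the largest marker in all 36 libraries, with 48.0% to 59.9% of the sum, so a scaling by the geometric mean of the 9 markers was added after this was seen. Its median shift was -0.48 to -1.52. Under either scaling 0 trafficking genes were called higher, and 0 to 4 (summed) or 0 to 2 (geometric mean) of the 4 were called lower per comparison. Of all genes 18.0% to 85.3% (summed) and 33.9% to 87.2% (geometric mean) were called in either direction per comparison. With the geometric mean, Rtp2 was at 0.32 with octanal (adjusted p = 0.142) and Ric8b at 0.23 (adjusted p = 0.296). Rtp1 was called lower with floral (-0.31, adjusted p = 0.00797), mint (-0.30, adjusted p = 0.00629), floral-mint (-0.28, adjusted p = 0.0114) and the AD mixture (-0.39, adjusted p = 0.0195). Reep1 was called lower with octanal (-0.58, adjusted p = 0.0173) and Ric8b with the AD mixture (-0.35, adjusted p = 0.0186). Each of these lower values lay above the median of all genes. That median was -0.516 with floral, -0.674 with mint, -0.588 with floral-mint, -0.593 with the AD mixture and -1.37 with octanal. In that order 54.0%, 69.9%, 63.8%, 43.4% and 84.2% of all genes were called in either direction. Of the choice genes 6 of 6 were called lower with acetophenone, octanal and the OC mixture under both scalings. Of all genes 65.9%, 83.3% and 85.3% were called in either direction there under the summed markers, and 66.9%, 84.2% and 87.2% under the geometric mean. Atf5 with decanal was the 1 gene called higher, under the geometric mean only (0.51, adjusted p = 0.0236), and Kdm1a with decanal was at -1.44.

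**Figure D3:**
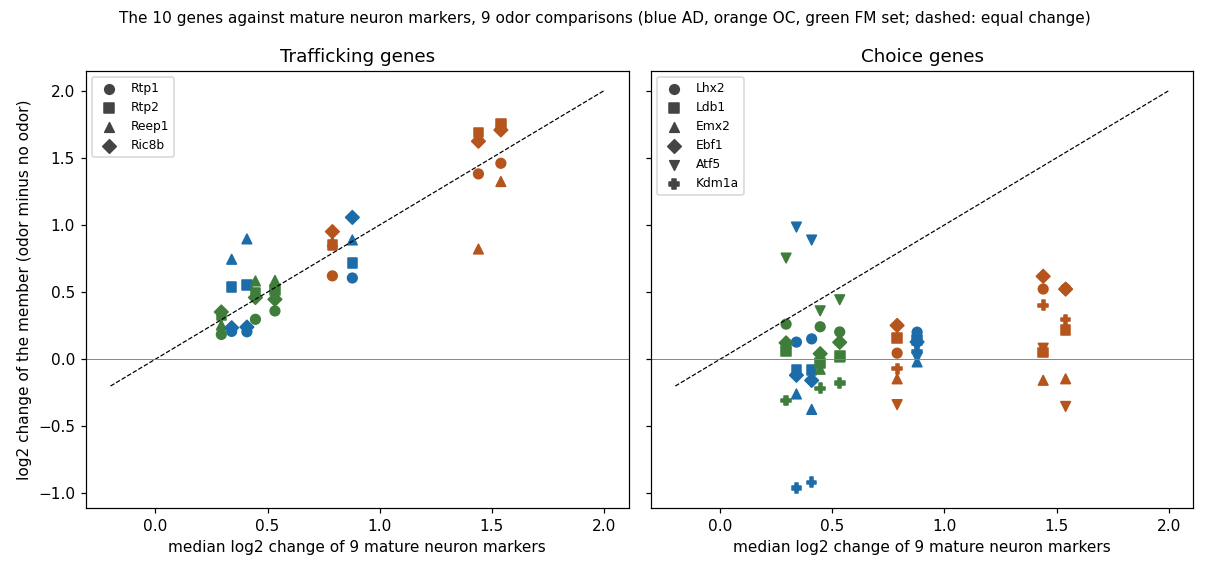
Log2 change of each trafficking gene (left) and choice gene (right) against the median log2 change of the 9 mature neuron markers, for the 9 odor comparisons, with a dashed line where both are equal. Rtp2 lies at 0.72 where the markers are at 0.88 (acetophenone) and at 1.75 where they are at 1.54 (octanal-hexenol mixture), Reep1 with octanal lies below the line at 0.82, and Kdm1a with decanal lies at -0.96; with libraries scaled to the markers, 0 trafficking genes were called higher.

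Among 12 paralogs and G protein partners of the trafficking genes, 11 could be tested. Gng13, Gnb1 and Gnal, which encode subunits of the olfactory G protein, were called higher with 7, 8 and 7 odors, and Gnal and Gng13 are also on the neuron marker list. Gnal changed by 1.17 with acetophenone (adjusted p = 4.66e-05) and 1.46 with the octanal-hexenol mixture (adjusted p = 7.14e-05), beside 1.06 and 1.71 for its partner Ric8b. Ric8a, the paralog of Ric8b, was called with 0 odors by edgeR (unadjusted p under 0.05 in 3) and ran from -0.257 to 0.0551. Counts of called members on this list were 2 to 4 higher (2.58% to 17.9% of all genes) and 0 or 1 lower (1.27% to 14.8%) per comparison, with a list median of -0.151 to 0.185 beside an all-gene median of -0.0507 to 0.0454.

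Lhx2, the LIM-homeodomain factor of the receptor enhancer complex, was called higher with 4 odors by at most 0.52. Its OC controls were at 428, 606 and 528 CPM and its octanal libraries at 780, 736 and 726 CPM (0.52 ± 0.16, adjusted p = 0.0193), and the mixture gave the same size of change (0.52, adjusted p = 0.0189). Without OC control library 1, the lowest, both calls were lost (adjusted p = 0.0973 and 0.0951), as was octanal's without octanal library 1 (adjusted p = 0.0628) and the mixture's without its library 3 (adjusted p = 0.0769). In the FM set its controls held 474, 519 and 520 CPM and the floral libraries 588, 630 and 595 CPM (0.26 ± 0.06, adjusted p = 0.0162). The floral call ended without FM control library 1 (adjusted p = 0.0946) or floral library 2 (adjusted p = 0.0664). Floral-mint gave 0.24 (adjusted p = 0.0283), held in 1 of 6 left-out fits. The AD odors gave 0.13 to 0.20 above controls of 649 to 708 CPM, with adjusted p of 0.116 to 0.223.

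Ldb1, the adaptor that joins Lhx2 across enhancers, was called with 0 of the 9 odors by edgeR, and its unadjusted p was above 0.05 in each. Its level ran from 99.2 to 149 CPM over all 36 libraries, and its changes from -0.08 to 0.22. The 95% interval was -0.20 to 0.31 with octanal and -0.18 to 0.12 with floral-mint. A fit of all 36 libraries called it with the octanal-hexenol mixture (0.23, adjusted p = 0.0191). Its exons share 177 bases, 3.84% of their length, with Pprc1 on the opposite strand, and the strand setting of the counting is not given in the sources used here.

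Ebf1, a zinc-finger factor of the olfactory lineage, was called higher with octanal and the octanal mixture. It was at 237, 267 and 240 CPM without odor in that set, at 380, 416 and 345 CPM with octanal (0.62 ± 0.14, adjusted p = 0.00351) and at 392, 357 and 319 CPM with the mixture (0.52 ± 0.14, adjusted p = 0.00986). Groups did not overlap in either. With cis-3-hexenol it held 293, 297 and 296 CPM and was not called (0.25, adjusted p = 0.305; 0.0325 with all 36 libraries in the fit). Elsewhere its changes were -0.16 to 0.13 and none was called. These rises with octanal are relative to library size. With geometric mean marker scaling Lhx2, Ebf1 and Kdm1a were at -0.79, -0.70 and -0.94. The median of all genes was -1.37 there, and 84.2% of genes were called.

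Emx2 was called lower in 1 comparison and higher in 0. AD controls held 85.5, 83.4 and 78.7 CPM and mixture libraries 61.7, 69.7 and 59.7 CPM (-0.37 ± 0.10, adjusted p = 0.0212). The decanal libraries also lay below every control, at 65.2, 71.5 and 70.2 CPM, but the change of -0.26 was not called (adjusted p = 0.0936; 0.0387 in a fit of the 6 libraries alone). The mixture call was lost without AD control library 1 or 2 or mixture library 1 or 3 (adjusted p 0.0601 to 0.0826). Globose basal and precursor cell markers were also lower in these groups, with summed levels of 149 to 190 CPM with decanal and 152 to 172 CPM with the mixture against 261 to 275 CPM without odor. Whether these cells had a part in the change of Emx2 was not tested. Emx2 shares 264 exonic bases (8.79%) with the antisense gene Emx2os.

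Kdm1a, the demethylase that opens the first receptor allele, fell with decanal and with the acetophenone-decanal mixture. It was at 259, 278 and 271 CPM without odor, 136, 131 and 147 CPM with decanal and 143, 143 and 141 CPM with the mixture. The odor libraries sat at about the same level and far below the controls. The changes were -0.96 ± 0.10 (adjusted p = 3.96e-05) and -0.92 ± 0.10 (adjusted p = 6.38e-05), and each held whichever of the 6 libraries was left out (adjusted p at most 0.00067). Acetophenone alone, at 322, 257 and 261 CPM, overlapped the controls (0.06, 95% interval -0.15 to 0.26). The median log2 change of the globose basal and precursor markers was -0.63 with decanal, -0.60 with the mixture and 0.02 with acetophenone. With octanal, where Kdm1a was higher, that median was -0.11. The part of these cells in the fall of Kdm1a was not tested.

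The other sets gave smaller Kdm1a changes in both directions. Floral libraries held 148, 140 and 127 CPM against 176, 176 and 162 CPM without odor (-0.31 ± 0.09, adjusted p = 0.0394), and this call ended whichever library was left out (adjusted p 0.0508 to 0.147). Mint (-0.18) and floral-mint (-0.22) were not called (adjusted p = 0.248 and 0.168). With octanal Kdm1a was higher, at 131, 120 and 125 CPM against 98.9, 101 and 84.8 CPM (0.40 ± 0.14, adjusted p = 0.039). That call ended without any 1 of 5 libraries (adjusted p 0.056 to 0.145) and held without octanal library 2, and it also ended with no filter (adjusted p = 0.0656) and in a fit of the 6 libraries alone (adjusted p = 0.0777). No-odor levels differed between sets, with means of 269, 94.96 and 171 CPM in the AD, OC and FM sets, where set and batch cannot be told apart.

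Atf5, the stress-responsive factor translated when receptor protein is made, was higher relative to library size with decanal, the acetophenone-decanal mixture and floral. AD controls held 96.5, 106 and 115 CPM, decanal libraries 241, 215 and 171 CPM (0.98 ± 0.16, adjusted p = 0.000705) and mixture libraries 225, 186 and 175 CPM (0.89 ± 0.16, adjusted p = 0.00149). No library overlapped. Acetophenone libraries, at 85.4, 127 and 107 CPM, did (0.01, 95% interval -0.32 to 0.34). Floral libraries held 245, 232 and 287 CPM against 137, 144 and 172 CPM (0.75 ± 0.14, adjusted p = 0.0039). Mint (0.44) and floral-mint (0.36) were not called (adjusted p = 0.0588 and 0.13), and DESeq2 called mint (adjusted p = 0.0127). Among OC libraries Atf5 varied widely within groups, from 190 to 413 CPM without odor and 204 to 526 CPM with octanal, and no odor was called (95% interval with octanal -0.64 to 0.81).

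With TMM, Kdm1a and Atf5 moved in opposite directions in the groups where both were called, which are decanal, the acetophenone-decanal mixture and floral. The floral call of Kdm1a ended whichever library was left out. With summed marker scaling Atf5 was at 0.18, -0.0052 and 0.07 in these groups and was not called (edgeR, adjusted p 0.36 to 0.978). With the geometric mean Atf5 was called with decanal only, at 0.51 (edgeR, adjusted p = 0.0236). Kdm1a stayed called lower under both, at -1.765, -1.805 and -0.973 with the summed markers. The median of all genes there was -0.806, -0.884 and -0.695. Over the 36 libraries, with each set centred on its mean, the Pearson r of Kdm1a and Atf5 was -0.71, a description of libraries that share sets and depth. Genes also differed by length in these comparisons. With decanal the median log2 change was 0.39 for genes whose longest transcript is under 1 kb, 0.12 at 1 to 2 kb, where Atf5 belongs, and -0.15 at 3 to 5 kb, where Kdm1a belongs. With floral these medians were 0.31, 0.11 and -0.12, and with octanal -0.28, -0.07 and 0.09. The part of length in the changes of Atf5 and Kdm1a was not tested. Atf5 shares 82 exonic bases (4.11%) with Il4i1 and with Nup62 on the other strand.

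**Figure D4:**
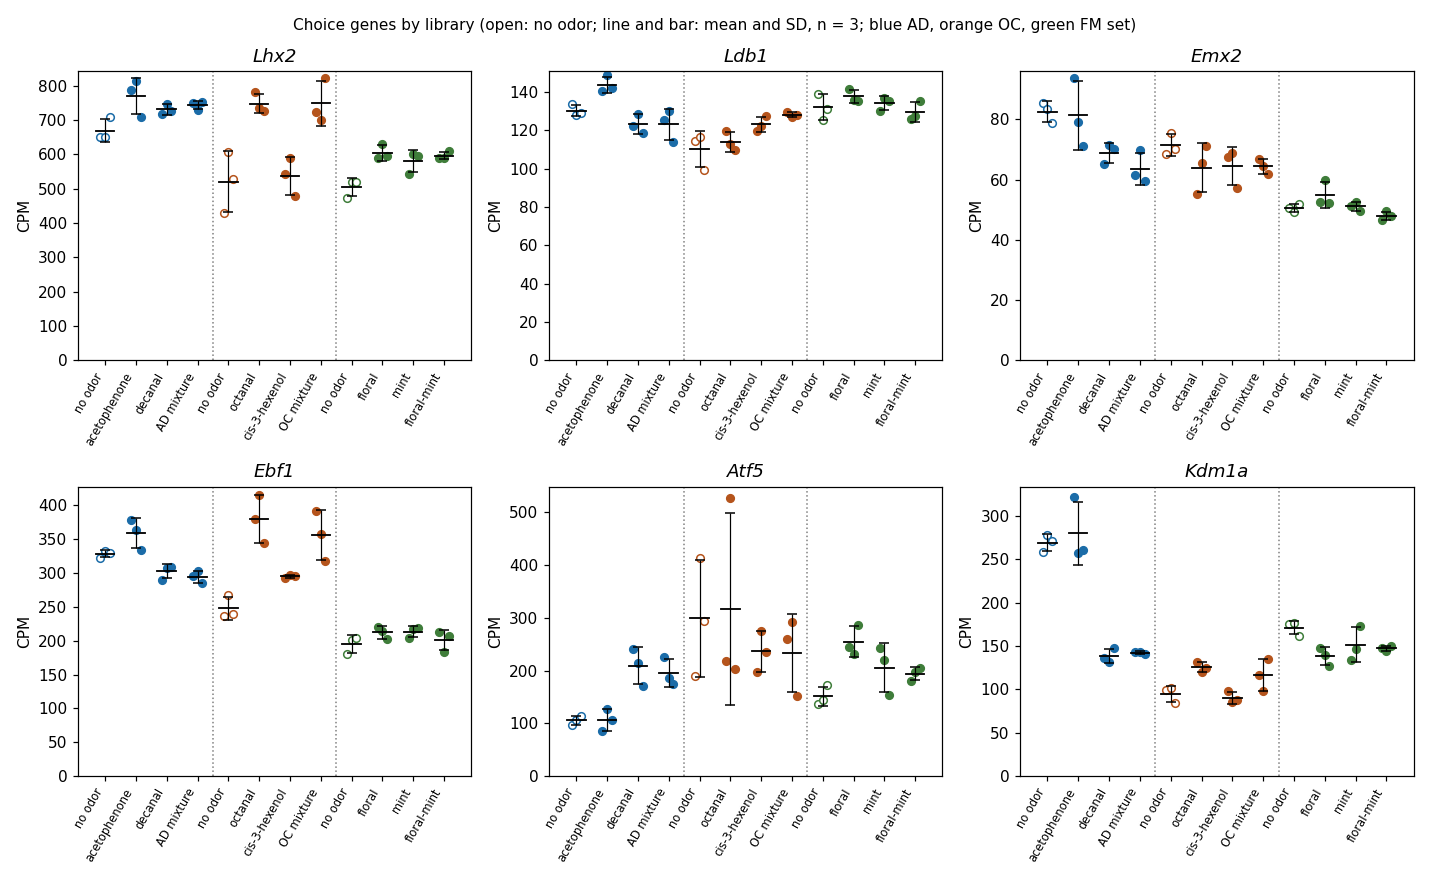
Level in CPM of Lhx2, Ldb1, Emx2, Ebf1, Atf5 and Kdm1a in each of the 36 libraries, by group, with the mean as a line and the SD as a bar (n = 3). Kdm1a is at 131 to 147 CPM in the decanal and acetophenone-decanal mixture libraries against 259 to 278 CPM in their controls, and Atf5 spreads from 190 to 413 CPM among the OC controls.

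Of 16 genes that silence or open receptor chromatin, 0 were called with acetophenone (unadjusted p under 0.05 in 1, edgeR), while 2 rose and 6 fell with decanal (10.8% and 11.5% of all genes) and 2 rose and 8 fell with the mixture (10.9% and 10.4%). Octanal raised 3 and lowered 5 (17.9% and 14.4%), and its mixture raised 3 and lowered 3 (17.7% and 14.8%). Floral and mint lowered 1 each (5.35% and 4.07%), and cis-3-hexenol and floral-mint gave 0 calls (unadjusted p under 0.05 in 3 and 5). Hdac2, a histone deacetylase found in Kdm1a complexes, fell by 0.66 with decanal (adjusted p = 0.000237) and by 0.74 with the mixture (adjusted p = 0.00013) and rose by 0.48 with octanal (adjusted p = 0.0282). These are the directions of Kdm1a in the same comparisons. The list's median was -0.276 with decanal, beside -0.0023 over all genes. Hdac1 and Suv39h2 were each called higher with 2 odors, and Hdac1 was also called lower with 2.

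Of 14 paralogs and partners of the choice factors, 13 could be tested, and 1 to 5 were called higher per comparison (2.58% to 17.9% of all genes) and 0 to 2 lower (1.27% to 14.8%). Ebf4, a paralog of Ebf1, was called higher with all 9 odors by 0.31 to 0.86 (adjusted p 0.00107 to 0.0456), where Ebf1 was called with 2. Ssbp2, which stabilises Ldb1 complexes, was called higher with 5 odors, by 0.96 with octanal (adjusted p = 0.000108). Ebf2 was called higher with 3 odors and lower with 2.

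Of 17 genes of the unfolded protein response, 5 rose and 2 fell with octanal (17.9% and 14.4% of all genes), 3 rose and 1 fell with its mixture (17.7% and 14.8%) and 0 were called with acetophenone or cis-3-hexenol (unadjusted p under 0.05 in 4 and 3, edgeR). Decanal raised 1 and lowered 2 (10.8% and 11.5%), its mixture raised 2 and lowered 3 (10.9% and 10.4%), and each FM odor raised 2 (6.42% to 8.70%). Dnajb9, a chaperone of the endoplasmic reticulum, was called higher with 6 odors, by 0.80 with octanal (adjusted p = 0.00125). Ppp1r15a, which restores translation after stress, was called higher with 5 odors. Among them were decanal (0.49, adjusted p = 0.00153), the mixture (0.66, adjusted p = 0.000251) and floral (0.37, adjusted p = 0.0028), where Atf5 was also called higher. With the other odors that raised Ppp1r15a, Atf5 was not called. Dnajc3, an inhibitor of eIF2 kinases, was called lower with 2 odors and higher with 0, at -0.53 to -0.04.

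Odors of the AD set differed from each other in these genes. Acetophenone against decanal gave 4 higher and 1 lower of 10 (29.5% of genes called), and the mixture against acetophenone gave 1 higher and 5 lower (25.7%). Between the mixture and decanal 0 were called by edgeR (0.287% of genes), and 0 had an unadjusted p under 0.05. Kdm1a was higher with acetophenone than with decanal by 1.02 ± 0.10 (adjusted p = 1e-05) and Ric8b by 0.82 ± 0.12 (adjusted p = 0.000154), while Atf5 was lower by 0.97 (adjusted p = 0.000432). For mixture minus decanal the 95% intervals were -0.16 to 0.25 for Kdm1a and -0.24 to 0.25 for Ric8b. The mixture differed from acetophenone by -0.97 for Kdm1a (adjusted p = 2.47e-05) and -0.82 for Ric8b (adjusted p = 0.000226). With neuron marker scaling these 3 contrasts gave 7 calls in place of 11, and 6 with the geometric mean. For these scaled contrasts the share of all genes called is not given here.

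Octanal exceeded cis-3-hexenol in 5 genes (21.0% of genes called either way): Rtp1 (0.76, adjusted p = 0.0137), Rtp2 (0.84, adjusted p = 0.00841), Ric8b (0.67, adjusted p = 0.0229), Lhx2 (0.48, adjusted p = 0.0425) and Kdm1a (0.47, adjusted p = 0.0269). Reep1 did not, at -0.05 (95% interval -0.50 to 0.39). The mixture exceeded cis-3-hexenol in 3, Rtp1, Rtp2 and Ric8b (12.9% of genes), and was called different from octanal in 0 (0.0715% of genes; unadjusted p under 0.05 in 1, Reep1, at 0.50). These 8 calls fell to 0 without cis-3-hexenol library 3, to 1 without cis-3-hexenol library 2 and to 4 without octanal library 1. Among FM odors 0 of the 10 genes were called in any of the 3 contrasts by edgeR or by DESeq2, where 0.354%, 0.120% and 0.104% of genes were. Unadjusted p was under 0.05 for Reep1 and Atf5 between floral and each of the other odors and for Emx2 between floral-mint and floral.

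Octanal and decanal are straight-chain aldehydes that differ in chain length, and were given undiluted in the same volume in different sets. The pair was chosen for this relation after values were seen, and the sets are batches. In a fit of all 36 libraries, the change from no odor was larger with octanal than with decanal for 6 of the 10 genes (18.9% of 20976 genes). The differences were 1.16 for Rtp1, 1.14 for Rtp2, 1.38 for Ric8b, 0.39 for Lhx2, 0.73 for Ebf1 and 1.35 for Kdm1a. Reep1 differed by 0.07 (95% interval -0.45 to 0.58), Ldb1 by 0.12 (-0.10 to 0.35), Emx2 by 0.09 (-0.188 to 0.375) and Atf5 by -0.90 (adjusted p = 0.0668). The Lhx2 call ended without AD control library 3, decanal library 1, OC control library 1 or octanal library 1, with no filter and in a fit of the 12 libraries compared (adjusted p 0.0509 to 0.135).

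The neuron markers differed between these odors in the same way, with a median log2 change of 1.44 with octanal and 0.34 with decanal. With libraries scaled by the summed markers, the difference was 0.67 for Rtp1 (adjusted p = 0.0105), 0.63 for Rtp2 (adjusted p = 0.0097), 0.85 for Ric8b (adjusted p = 0.00197) and 0.85 for Kdm1a (adjusted p = 0.0145), while Lhx2 and Ebf1 were not called (adjusted p = 0.768 and 0.426). With the geometric mean of the markers Ric8b was the 1 gene called larger with octanal (0.47, adjusted p = 0.0178), and Rtp1 (0.28), Rtp2 (0.25) and Kdm1a (0.50) were not called (adjusted p = 0.164, 0.178 and 0.0969). Under these scalings 4.53% and 2.33% of all genes were called larger with octanal, and 24.7% and 43.9% smaller. The median over all genes was -0.54 and -0.89. Atf5 was called smaller with octanal under both (edgeR, -1.34, adjusted p = 0.0101, and -1.62, adjusted p = 0.00379). Reep1 (-0.86), Ldb1 (-0.73) and Emx2 (-0.72) were called smaller under the geometric mean only (edgeR, adjusted p 0.00249 to 0.023).

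Calls were less stable in some groups than in others. The octanal count of 7 became 4 without octanal library 1, and the cis-3-hexenol count of 3 became 0 to 2 under each left-out library, with 0 without OC control library 1. The floral count of 4 became 1 or 2 under each left-out library, the mint count of 4 became 1 without FM control library 1 or 3 and 2 without mint library 2, and the floral-mint count of 5 became 1 without FM control library 1 or 3 or floral-mint library 1 and 3 without either of its other libraries. Fitting the 3 sets together left 0, 1 and 0 calls for floral, mint and floral-mint and gave 5 for cis-3-hexenol. The share of all genes called in these refits is not given here. The counts thus cannot show whether these genes differ from the rest in stability.

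Levels between genes were compared as CPM per kb of exon. Averaged across the 12 groups, Rtp1 was highest at 204.5, then Rtp2 at 159.8, Lhx2 at 147.0, Ric8b at 129.8 and Atf5 at 104.8 CPM per kb. Kdm1a (30.02), Ebf1 (28.91) and Ldb1 (27.65) followed close together, then Emx2 (21.25) and Reep1 (10.95). The group means of Kdm1a ran from 17.4 to 54.1 CPM per kb and of Ebf1 from 20.0 to 39.0, so neighbours in that middle part of the order trade places between groups. In the OC controls Lhx2 (118 ± 20.3, SD, n = 3) and Atf5 (150 ± 55.9) were the highest of the 10 genes. Rtp1 there was at 83.9 ± 12.2 and Rtp2 at 63.1 ± 8.86. In the AD controls Rtp1 (172 ± 7.93) and Lhx2 (152 ± 7.57) led. Rtp1 reached its highest group mean of 265 CPM per kb with mint, Rtp2 its highest of 212 with the octanal-hexenol mixture and Ric8b its highest of 199 with acetophenone.

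Over the 36 libraries, with each set centred on its mean, the 6 pairs of trafficking genes had Pearson r of 0.78 to 0.97 and the 15 pairs of choice genes -0.71 to 0.71, with medians of 0.87 and 0.19. Of 13776 genes compared, Cnga2, a subunit of the olfactory cyclic nucleotide channel, was the most like Rtp1 (r = 0.982, Spearman's rho = 0.968) and the most like Rtp2 (r = 0.977, rho = 0.941). Ric8b was most like Kif9 (0.977), Wdfy1 (0.977) and Pde1c (0.975), and Reep1 most like Zfand2a (0.926). The genes most like Kdm1a included Ctnna1 (0.954) and Hif1a (0.953), those most like Atf5 were Cplx2 (0.928) and Cox4i1 (0.918), and Lhx2 was most like Chtop (0.920). The nearest gene to Emx2 (Ada, 0.739) was less close. The libraries of a set share their depth scaling and neuron marker level, and these values carry no test.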

How the data were processed

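The authors deposited an expected count for each gene. Between 11.1% and 16.4% of the values in a library were not whole, and all were rounded before testing. Per the submitters' processing notes, STAR 2.7.10b, Salmon 1.10.1, R 4.4.2 and GRCm39 were used; the annotation and the step that gave the counts are not given in the sources used here. Per the labels' protocols, libraries were made with a stranded mRNA kit. Symbols came from GENCODE vM21 (52029 of 57010 identifiers); the 4981 others held 0.284% to 0.650% of counts.

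Fits were made in R 4.3.3 with edgeR 4.0.16; DESeq2 1.42.0 served as an alternative, and limma 3.58.1 was loaded by edgeR. Each set was fitted alone with its 4 groups as terms, after filterByExpr (minimum count 10, total 15) and TMM, with 2-sided quasi-likelihood tests and Benjamini-Hochberg adjustment over all genes tested. SE is the log2 change divided by the square root of F. CPM uses TMM-scaled library sizes. The genes named are all 10 and, per list, the 3 with the lowest median p rank; Ric8a was named after its values were seen. Likeness used log2(CPM + 0.5) in genes with a mean of at least 1 CPM. Some of its results are not reported here. The genes and lists were chosen with earlier results of these data known. The script was tested on simulated data. Alternatives tried were RLE size factors, marker scaling, no filter, DESeq2, fits of 6 or 36 libraries, the replicate block and leaving out each library. The labels do not say that replicate numbers pair libraries, and the main fits used no pairing.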

Additional observations from a re-analysis of the deposited data

Results flagged for a closer look

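The change with octanal and the change with decanal, each against the no-odor libraries of its own set, differed for 6 of the 10 genes in a test of the difference itself (edgeR quasi-likelihood test, all 36 libraries, Benjamini-Hochberg adjusted). Octanal minus decanal was 1.163 for Rtp1 (adjusted p = 1.36e-05), 1.14 for Rtp2 (adjusted p = 5.51e-05) and 1.379 for Ric8b (adjusted p = 9.78e-06) on the log2 scale. It was 0.3873 for Lhx2 (adjusted p = 0.0277), 0.73 for Ebf1 (adjusted p = 3.45e-05) and 1.353 for Kdm1a (adjusted p = 5.81e-08). Kdm1a was higher with octanal in 3 of 3 libraries and lower with decanal in 3 of 3. The difference spans 2 batches with separate controls, and 18.9% of all genes tested differed in this direction. The median change of the 9 mature neuron markers was 1.44 with octanal and 0.34 with decanal. With libraries scaled by the summed markers the differences of Rtp1, Rtp2, Ric8b and Kdm1a passed the threshold (adjusted p 0.00197 to 0.0145) and those of Lhx2 and Ebf1 did not. With the geometric mean of the markers, of these 6 genes only Ric8b passed (0.47, adjusted p = 0.0178).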

How the results depend on the processing

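Apart from scaling to neuron markers, 0 of the alternatives tried turned the direction of a called change. RLE size factors kept the side of the threshold of all 90 gene-by-comparison changes, DESeq2 of 85, no filter of 84, the 6 libraries compared of 80, all 36 libraries of 74 and the left-out libraries of 471 of 540. Counts of called genes moved in some, and the share of all genes called in those fits is not given here. With all 36 libraries, cis-3-hexenol gave 5, floral 0, mint 1 and floral-mint 0. With only the 6 libraries compared decanal gave 7, and with no filter the FM odor contrasts gave 1. With the replicate block floral gave 2 in place of 4 (Rtp2 adjusted p = 0.0714, Kdm1a adjusted p = 0.0728), and Rtp1 was not called with floral-mint (adjusted p = 0.0634). Deviations of same-numbered odor and control libraries correlated at -0.277 to 0.224. Per comparison, 0 to 2 of 3 odor libraries correlated best with the control of their own number. With 3 pairs per comparison this cannot decide whether the numbers pair libraries, and the labels do not say that they do. The left-out libraries gave 4 to 5 calls with acetophenone, 4 with decanal, 4 to 5 with their mixture, 4 to 7 for octanal, 0 to 2 for cis-3-hexenol, 5 to 7 for the octanal mixture, 1 to 2 with floral, 1 to 5 with mint and 1 to 5 with floral-mint. Between odors they gave 9 to 12 calls in AD, 0 to 9 in OC and 0 in FM. The order of levels per kb was kept in 539 of 540 pairs with RLE and in 499 with the longest transcript.

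Marker scaling by summed counts gave 7 calls with decanal (58.5% of all genes called), 8 with the acetophenone mixture (63.3%), 1 with cis-3-hexenol (18.0%), 9 with floral (70.9%), 8 with mint (77.8%) and 7 in the AD odor contrasts. The geometric mean of the markers gave 6 in the AD and 5 in the OC odor contrasts. For odor contrasts under marker scaling the share of all genes called is not given here. By construction these scalings lower every gene by the change of the markers. Log2 changes that turned negative are given here where they were called with TMM or with the marker scaling, and changes called with neither are left out. Under the summed markers those with acetophenone were Rtp1 -0.24, Rtp2 -0.15, Lhx2 -0.63, Ldb1 -0.69, Ebf1 -0.70, Atf5 -0.85 and Kdm1a -0.76. With decanal they were Rtp1 -0.59, Rtp2 -0.27, Reep1 -0.05496, Ric8b -0.57 and Lhx2 -0.68. With the acetophenone-decanal mixture they were Rtp1 -0.68, Rtp2 -0.34, Ric8b -0.64, Lhx2 -0.73 and Atf5 -0.005237. With octanal they were Reep1 -0.51, Lhx2 -0.76, Ldb1 -1.26, Ebf1 -0.68, Atf5 -1.16 and Kdm1a -0.91. With the octanal-hexenol mixture they were Reep1 -0.06843, Lhx2 -0.84, Ldb1 -1.18, Ebf1 -0.88 and Kdm1a -1.10. With floral they were Rtp1 -0.49, Rtp2 -0.34, Reep1 -0.41, Ric8b -0.31, Lhx2 -0.41, Ldb1 -0.61, Emx2 -0.56 and Ebf1 -0.55. With mint they were Rtp1 -0.42, Rtp2 -0.26, Reep1 -0.18, Ric8b -0.32, Lhx2 -0.58, Ldb1 -0.75, Emx2 -0.76 and Ebf1 -0.65. With floral-mint they were Rtp1 -0.40, Rtp2 -0.20, Reep1 -0.11, Ric8b -0.24, Lhx2 -0.46 and Ebf1 -0.66. Under the geometric mean those with acetophenone were Rtp1 -0.23, Rtp2 -0.14, Lhx2 -0.63, Ldb1 -0.69, Ebf1 -0.70, Atf5 -0.85 and Kdm1a -0.75. With the acetophenone-decanal mixture they were Rtp1 -0.39, Rtp2 -0.04179, Ric8b -0.35 and Lhx2 -0.44. With octanal they were Reep1 -0.58, Lhx2 -0.79, Ldb1 -1.29, Ebf1 -0.70, Atf5 -1.11 and Kdm1a -0.94. With cis-3-hexenol Lhx2 was at -0.64. With the octanal-hexenol mixture they were Reep1 -0.15, Lhx2 -0.92, Ldb1 -1.25, Ebf1 -0.94 and Kdm1a -1.18. With floral they were Rtp1 -0.31, Rtp2 -0.17, Lhx2 -0.23, Ldb1 -0.43, Emx2 -0.38 and Ebf1 -0.37. With mint they were Rtp1 -0.30, Rtp2 -0.15, Reep1 -0.06307, Ric8b -0.21, Lhx2 -0.46, Ldb1 -0.64, Emx2 -0.64 and Ebf1 -0.54. With floral-mint they were Rtp1 -0.28, Rtp2 -0.07981, Ric8b -0.12, Lhx2 -0.34 and Ebf1 -0.54. The difference between octanal and decanal turned negative for Lhx2 under the summed markers (-0.0895), and under the geometric mean for Reep1 (-0.8555), Lhx2 (-0.44), Ldb1 (-0.73), Emx2 (-0.7214) and Ebf1 (-0.1003). Its count of 6 was 5 to 7 under its alternatives, which were chosen after the difference was seen, left-out libraries among them. This count pools both directions. Under the summed markers Atf5 was called smaller with octanal (edgeR, -1.34, adjusted p = 0.0101). Under the geometric mean Reep1, Ldb1, Emx2 and Atf5 were called smaller with octanal (edgeR, adjusted p 0.00249 to 0.023), and only Ric8b larger. With the replicate block the count was 7 (Atf5 adjusted p = 0.0435). Counts of 437 or more in every library did not limit detection, and 3 libraries per group limit the precision.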
